A study of Homo sapiens with 6 samples.

Results

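The 10 genes described here encode proteins that build, coat and break down cytosolic lipid droplets. They comprise the perilipins PLIN2, PLIN3, PLIN4 and PLIN5, the acyltransferases DGAT1 and DGAT2, the lipase PNPLA2, its co-activator ABHD5 and its inhibitors G0S2 and HILPDA. They were chosen by name, as genes of droplet coating, triglyceride synthesis and lipolysis, and all 10 were among the 38557 genes listed for each library. RNA was sequenced from wild-type cardiomyocytes made from WTC11, a human iPSC line (induced pluripotent stem cells), after culture in 1 of 2 backbone media. One group had RPMI plus B27, a basal medium with a serum-free supplement, and the other had DMEM plus fatty acids. There were 3 biological replicates of each, numbered 1 to 3, and the labels give neither the media's composition nor the time in them. All 6 libraries came from 1 cell line, and the labels do not say what separates the replicates, so the p-values measure the spread between these cultures only.

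Cells store fatty acids as triglyceride in droplets that bud from the endoplasmic reticulum. The enzymes DGAT1 and DGAT2 each join the last acyl chain to diacylglycerol, and perilipins on the droplet surface limit the access of lipases. Adipose triglyceride lipase, the product of PNPLA2, removes the first acyl chain. ABHD5, also called CGI-58, activates this lipase, while G0S2 and HILPDA bind and inhibit it. In heart muscle this turnover passes fatty acids to the mitochondria and supplies ligands of peroxisome proliferator-activated receptors (PPARs), which induce PLIN2 and other genes of fat use. HILPDA is also induced by hypoxia-inducible factors (HIFs).

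The libraries held 23232324 to 31035389 gene counts, and 1 count corresponded to 0.0296 to 0.0431 CPM (read counts divided by library size, with libraries scaled by TMM, the trimmed mean of M values). Cardiomyocyte markers summed to 30600 to 37330 CPM in RPMI plus B27 and 24580 to 34380 CPM in DMEM plus fatty acids, and all 12 were detected. The 9 fibroblast markers summed to 4227 to 7965 and 741.0 to 1925 CPM, and 4 of them fell by the edgeR test, which 1.36% of all tested genes passed. Smooth muscle markers summed to 1555 to 1949 and 311.2 to 1125 CPM, with 1 of 5 lower by the test, and hepatocyte markers to 15.6 to 314.7 and 7.66 to 50.2 CPM, with 0 of 7 tested markers passing. With the replicate number as a block, 3 hepatocyte markers (SERPINA1, AFP and FGB), 6 fibroblast, 2 smooth muscle and 2 cardiomyocyte markers were lower in DMEM plus fatty acids (edgeR). In that fit 4.78% of all tested genes passed. Of the 7 adipocyte markers, which summed to 9.55 to 16.2 CPM over the 6 libraries, ADIPOQ, LEP, FABP4 and CIDEC had at most 1 count in any library, PCK1 at most 2 and PLIN1 at most 7. LIPE, the gene of hormone-sensitive lipase, which muscle also makes, had 271 to 421 counts. The 7 macrophage markers summed to 0.702 to 2.07 CPM. Among them C1QA and C1QB had no counts, which allows up to 3, while CD68 had 17 to 42 and CSF1R 3 to 12. In these bulk libraries fewer cells of a type and less RNA per cell cannot be told apart.

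None of the 10 genes changed between the media at an adjusted p under 0.05 (edgeR quasi-likelihood test, Benjamini-Hochberg over 16107 genes), against 1.36% of all tested genes. The adjusted p-values ran from 0.184 for DGAT1 to 0.799 for DGAT2. At an unadjusted p under 0.05 there were 2, DGAT1 and HILPDA, where 17.7% of all genes had such a p. These 2 were also the members whose CPM ranges in the media were separate, a pattern shown by 25.6% of all tested genes. Both shares of the members lie near those of all genes. The median log2 fold change of the 10 genes (positive where DMEM plus fatty acids was higher) was 0.16, beside 0.01 for all genes tested. When replicate numbers entered the fit as a block, 0 of the 10 passed, against 4.78% of all genes, and the DESeq2 Wald test also called 0.

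**Figure D1:**
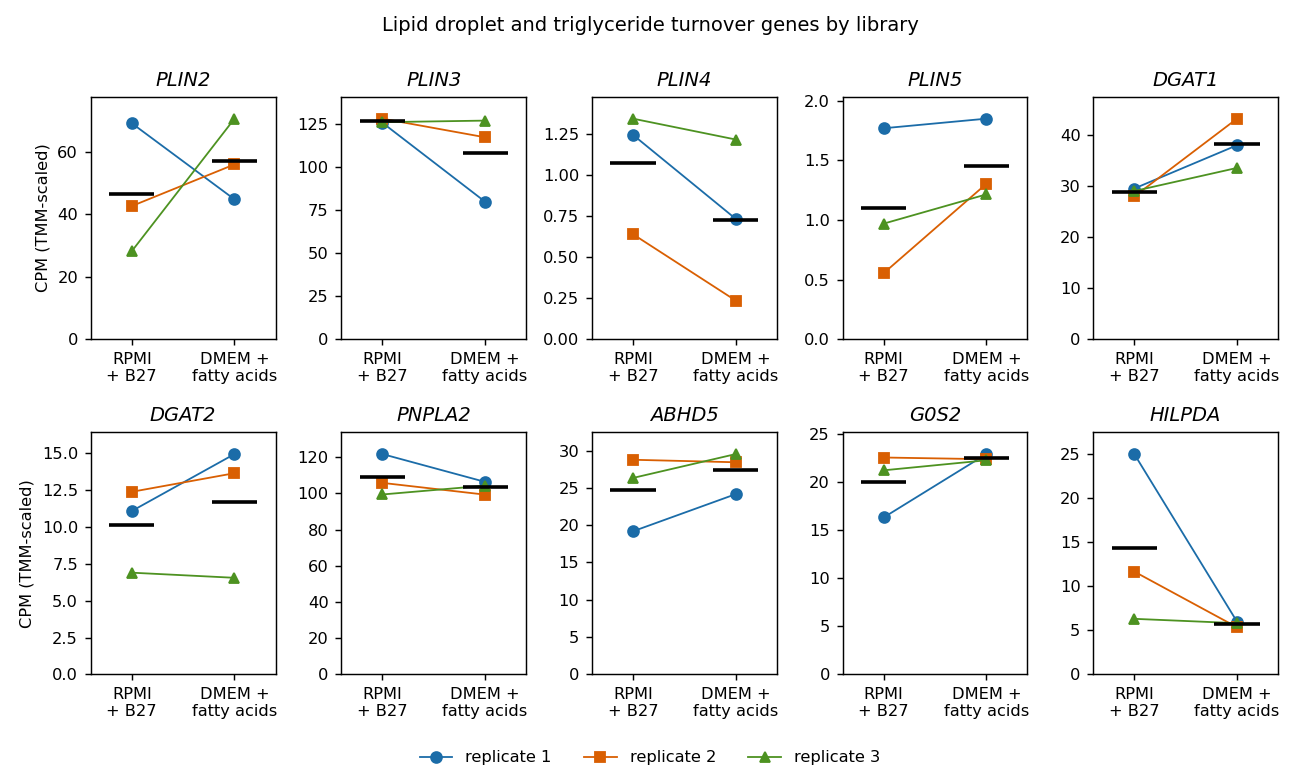
TMM-scaled CPM of the 10 genes in each library, with the vertical axis of each panel starting at 0; symbols and colours mark the replicate number, lines join libraries that share it and black bars are means of 3. For DGAT1 and HILPDA the media do not overlap, and the lines for PLIN2 cross, from 69.3 to 44.8 CPM in replicate 1 and from 28.2 to 70.7 CPM in replicate 3.

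Perilipin 2 coats droplets in most tissues and is stabilised by them. Its gene lies on chromosome 9 (GRCh38, 19108375 to 19149290, minus strand). PLIN2 measured 69.3, 42.7 and 28.2 CPM in RPMI plus B27 replicates 1 to 3 and 44.8, 56.0 and 70.7 CPM in DMEM plus fatty acids replicates 1 to 3. The groups overlapped throughout, and the library lowest in RPMI plus B27 had the same number as the one highest in DMEM plus fatty acids. Within replicate numbers, the log2 difference in PLIN2 was -0.63 in replicate 1, 0.39 in replicate 2 and 1.33 in replicate 3, so the direction was not shared. The fitted log2 fold change of PLIN2 was 0.29 ± 0.32 (SE), with a 95% interval of -0.46 to 1.05 and an adjusted p of 0.682 in the edgeR test. Leaving out single libraries moved this value between 0.03 (without RPMI plus B27 replicate 3) and 0.69 (without RPMI plus B27 replicate 1). Without both replicate 1 libraries it was 0.84, with an adjusted p of 0.206. Among the members above 25 CPM in every library, PLIN2 had the widest spread, with 2.51 times as much in the highest library as in the lowest. Of the members below that level, HILPDA (4.67 times), PLIN4 (5.73) and PLIN5 (3.35) spread more.

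Of the 10 genes, 7 had a promoter in the RefSeq table (GRCh38.p14), with 9 start sites. The 250 bases before each start were searched on both strands for ACGTG, a form of the core of the HIF response element. That core is A or G followed by CGTG, and the form GCGTG was not part of the search or of the share over all promoters. The stretches of PLIN3, PLIN5, ABHD5 and G0S2, which lack ACGTG, do hold GCGTG on at least 1 strand. A core of either form was therefore not particular to PLIN2. AGGTCA, the half-site bound by PPARs and other nuclear receptors, was searched in the same way. HILPDA, DGAT1 and DGAT2 were not searched. Among the 7 genes searched, ACGTG was found upstream of PLIN2 only, 3 times, while 18.5% of all 35116 promoters held it. Among the same 7, AGGTCA was found upstream of PNPLA2 only, once, against 12.1% of all promoters. The PLIN2 stretch, at chr9:19127493-19127742 on the minus strand, is printed because it alone among the stretches searched held ACGTG and because PLIN2 had the wide spread given above. The capitals mark ACGTG on either strand. It begins at -120, -69 and -68 from the start, and the last 2 matches are 1 on each strand and overlap.
PLIN2: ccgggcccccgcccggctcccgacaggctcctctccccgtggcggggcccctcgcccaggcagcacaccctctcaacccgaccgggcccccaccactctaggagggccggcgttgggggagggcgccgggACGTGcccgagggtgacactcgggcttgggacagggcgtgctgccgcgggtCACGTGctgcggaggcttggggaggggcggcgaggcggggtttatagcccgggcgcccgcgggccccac
Such a match describes letters in this window and not a bound site.

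Perilipin 3 is a soluble coat protein that moves onto newly formed droplets. PLIN3 (chromosome 19, 4838341 to 4867768, minus strand) had 126, 128 and 126 CPM in RPMI plus B27 and 79.8, 117 and 127 CPM in DMEM plus fatty acids. The RPMI plus B27 libraries lay within 1.02-fold of each other, and DMEM plus fatty acids replicate 1 was the single low library. The log2 fold change of PLIN3 was -0.23 ± 0.18 (interval -0.64 to 0.18, adjusted p 0.542, edgeR). Without both replicate 1 libraries it was -0.06.

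Perilipins 4 and 5 are coat proteins of muscle and fat, and perilipin 5 tethers droplets to mitochondria in oxidative tissue. Their genes are neighbours on chromosome 19 (PLIN4, 4502180 to 4518465, and PLIN5, 4522531 to 4535224, both on the minus strand). Both were scarce here. PLIN4 had 33, 15 and 36 counts in RPMI plus B27 and 17, 7 and 41 in DMEM plus fatty acids, or 0.234 to 1.34 CPM over the 6 libraries. PLIN5 had 47, 13 and 26 counts in RPMI plus B27 and 43, 39 and 41 in DMEM plus fatty acids, or 0.553 to 1.85 CPM. The groups overlapped for both genes. At these depths the intervals were wide. That of PLIN4 ran from -1.93 to 0.81 around -0.56 ± 0.59, with an adjusted p of 0.665, and that of PLIN5 from -0.67 to 1.46 around 0.40 ± 0.45, with an adjusted p of 0.695 (edgeR). Within each replicate number PLIN4 was lower in DMEM plus fatty acids in 3 of 3 pairs and PLIN5 higher in 3 of 3, yet with the replicate number as a block neither passed (adjusted p 0.321 and 0.425, edgeR). For PLIN5 the difference was largest in replicate 2, where RPMI plus B27 held the lowest value, and it was 0.08 without that RPMI plus B27 library. For PLIN4 the value was -1.18 when DMEM plus fatty acids replicate 3 was left out and -0.13 when replicate 2 of that medium was.

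Levels of different genes were compared per kilobase of their principal transcript (GENCODE 29). On this scale PLIN3 and PLIN2 made up nearly all the perilipin RNA that was counted. PLIN3 held 59.9%, 71.4% and 78.4% of the summed perilipin level in RPMI plus B27 and 59.2%, 63.4% and 59.8% in DMEM plus fatty acids. PLIN2 held 39.1%, 28.1% and 20.7%, and 39.3%, 35.9% and 39.4%. PLIN4 and PLIN5 together held 0.422% to 1.50% in the 6 libraries. Reads lost where PLIN4 overlaps HDGFL2 and PLIN5 overlaps AC011498.4 can lower this share. The PLIN2 share was thus similar among the DMEM plus fatty acids libraries and spread in RPMI plus B27, and the ranges overlapped.

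DGAT1, in the endoplasmic reticulum, esterifies mainly fatty acids taken up from outside or released by lipolysis. It lies on chromosome 8 (144314584 to 144326910, minus strand). DGAT1 had 29.5, 27.9 and 29.0 CPM in RPMI plus B27 and 37.9, 43.1 and 33.5 CPM in DMEM plus fatty acids. All 3 DMEM plus fatty acids libraries were above all 3 RPMI plus B27 libraries. The RPMI plus B27 libraries differed from each other by at most 1.06-fold. The means were 28.8 ± 0.80 and 38.2 ± 4.83 CPM (SD, n = 3 each), and the log2 fold change was 0.41 ± 0.13 (interval 0.09 to 0.72). DGAT1 had the smallest p of the 10 genes, 0.0181, but its adjusted p was 0.184 in the edgeR test, and over 13 alternatives it ranged from 0.101 to 0.469. Within replicate numbers the log2 difference was 0.36, 0.63 and 0.21. The annotated gene overlaps HSF1 on the other strand, and the strand setting of the counting is not given in the sources used here.

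DGAT2, an unrelated enzyme with the same reaction, also acts on the droplet surface and is tied to newly made fatty acids. DGAT2 (chromosome 11, 75759512 to 75801535, plus strand) had 11.1, 12.4 and 6.90 CPM in RPMI plus B27 and 14.9, 13.6 and 6.55 CPM in DMEM plus fatty acids. Replicate 3 was the lowest in both media, and the groups overlapped. The log2 fold change of DGAT2 was 0.21 ± 0.36 (interval -0.62 to 1.04, adjusted p 0.799, edgeR), and the SE was 0.17 with the replicate number as a block (0.17 on the log2 scale, adjusted p 0.582).

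PNPLA2 carries the name adipose triglyceride lipase although many tissues use it, the heart among them. PNPLA2 (chromosome 11, 818902 to 825573, plus strand) had 122, 106 and 99.4 CPM in RPMI plus B27 and 106, 99.4 and 104 CPM in DMEM plus fatty acids. The 6 libraries lay within 1.23-fold of each other, the narrowest range of the 10 genes. Its log2 fold change was -0.08 ± 0.12 with an interval of -0.35 to 0.19 (adjusted p 0.772, edgeR), which spans 1.27-fold lower to 1.14-fold higher. The sign was opposite under scaling by total counts, where PNPLA2 had 0.03 while the median of all genes was at 0.12, and without RPMI plus B27 replicate 1, where it had 0.01.

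The co-activator gene ABHD5 (chromosome 3, 43690108 to 43734371, plus strand) had 19.2, 28.8 and 26.3 CPM in RPMI plus B27 and 24.2, 28.4 and 29.5 CPM in DMEM plus fatty acids. Replicate 1 was the lowest in both media. Its log2 fold change was 0.15 ± 0.18 (interval -0.28 to 0.58, adjusted p 0.724, edgeR) and became -0.01 without RPMI plus B27 replicate 1. G0S2 encodes a small inhibitor that binds the lipase's catalytic region, and lies on chromosome 1 (209675420 to 209676388, plus strand). G0S2 had 16.3, 22.5 and 21.2 CPM in RPMI plus B27 and 22.9, 22.4 and 22.3 CPM in DMEM plus fatty acids. RPMI plus B27 replicate 1 was the low library and the other 5 lay between 21.2 and 22.9 CPM. The log2 fold change was 0.17 ± 0.16 (interval -0.20 to 0.54, adjusted p 0.624, edgeR), and 0.04 without that library. For 5 of the 10 genes (PLIN3, DGAT1, PNPLA2, ABHD5 and G0S2) the 95% interval lay within a 2-fold change in either direction.

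HILPDA, hypoxia-inducible lipid droplet-associated protein, had the largest fitted difference of the 10 genes. HILPDA (chromosome 7, 128455849 to 128458418, plus strand) had 25.0, 11.7 and 6.30 CPM in RPMI plus B27 and 5.98, 5.35 and 5.81 CPM in DMEM plus fatty acids. The DMEM plus fatty acids libraries differed by at most 1.12-fold and the RPMI plus B27 libraries by 3.96-fold. RPMI plus B27 replicate 3 stood just above the highest DMEM plus fatty acids library. The means were 14.3 ± 9.62 and 5.72 ± 0.33 CPM (SD, n = 3 each), a log2 fold change of -1.32 ± 0.46 with an interval of -2.40 to -0.25. The unadjusted p was 0.0220 and the adjusted p 0.199 (edgeR). Its adjusted p ran from 0.0503 in the DESeq2 Wald test to 0.417 over 13 alternatives. The log2 difference was -2.06 within replicate 1, -1.12 within replicate 2 and -0.12 within replicate 3, so the size of the difference rested on RPMI plus B27 replicates 1 and 2. Without RPMI plus B27 replicate 1 it was -0.65, with an adjusted p of 0.348.

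**Figure D2:**
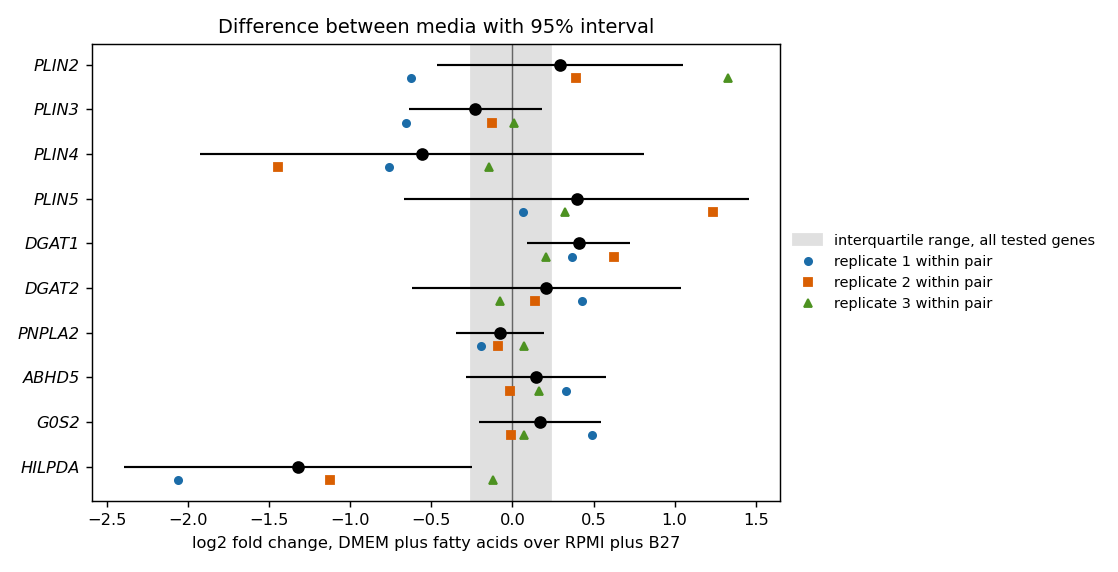
Fitted log2 fold change of each gene (black points) with its 95% interval (lines); coloured symbols below are the log2 differences within each replicate number, and the grey band is the interquartile range of all tested genes, from -0.25 to 0.24. The intervals of DGAT1 (0.09 to 0.72) and HILPDA (-2.40 to -0.25) leave out 0, before adjustment over all genes.

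The order of the genes by level per kilobase was nearly the same in both media. In RPMI plus B27, PLIN3 was highest (54.3 ± 0.55 CPM per kilobase, SD, n = 3), followed by PNPLA2 (44.9 ± 4.74), PLIN2 (23.7 ± 10.6), G0S2 (23.1 ± 3.79), HILPDA (10.6 ± 7.13), DGAT1 (7.76 ± 0.21), ABHD5 (4.61 ± 0.93), DGAT2 (4.13 ± 1.17), PLIN5 (0.44 ± 0.25) and PLIN4 (0.17 ± 0.06). Neighbours whose libraries overlapped there were PLIN2 and G0S2, HILPDA and DGAT1, and ABHD5 and DGAT2. In DMEM plus fatty acids the first 4 places were the same, with 46.3 ± 10.7 for PLIN3, 42.6 ± 1.49 for PNPLA2, 29.0 ± 6.59 for PLIN2 and 26.0 ± 0.40 for G0S2. HILPDA stood eighth there, at 4.24 ± 0.24 CPM per kilobase, behind DGAT1 (10.3 ± 1.30), ABHD5 (5.10 ± 0.53) and DGAT2 (4.77 ± 1.84). In that medium PLIN3 overlapped PNPLA2, PLIN2 overlapped G0S2, and ABHD5, DGAT2 and HILPDA overlapped in turn. Dividing by the length of all annotated exons instead put G0S2 before PLIN2 in both media, HILPDA behind DGAT1 in RPMI plus B27 and HILPDA ahead of DGAT2 in DMEM plus fatty acids.

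Ratios of raw counts within a library do not depend on how libraries are scaled, and 5 were compared. With 3 against 3 libraries an exact two-sided permutation test cannot give a p under 0.1, or under 0.25 within 3 pairs. For every 100 counts of PNPLA2 there were 13.4, 21.3 and 21.3 counts of its inhibitor G0S2 in RPMI plus B27 and 21.5, 22.5 and 21.3 in DMEM plus fatty acids. The groups did not overlap (exact permutation p 0.1, 0.25 adjusted over the 5 ratios), though 2 RPMI plus B27 libraries lay next to the DMEM plus fatty acids range, and the mean log2 difference of 0.25 was 0.03 without RPMI plus B27 replicate 1. The other inhibitor, HILPDA, had 20.5, 11.0 and 6.34 counts per 100 of PNPLA2 in RPMI plus B27 and 5.63, 5.39 and 5.57 in DMEM plus fatty acids. Here too the groups did not overlap (log2 difference -1.03, exact permutation p 0.1, adjusted 0.25), and the difference was -0.60 without RPMI plus B27 replicate 1. The co-activator ABHD5 had 15.7, 27.2 and 26.5 counts per 100 of PNPLA2 in RPMI plus B27 and 22.7, 28.6 and 28.3 in DMEM plus fatty acids, and the groups overlapped (log2 difference 0.23, exact permutation p 0.5, adjusted 0.75). Within replicate numbers the ABHD5 to PNPLA2 difference was 0.53, 0.07 and 0.10 on the log2 scale, positive in 3 of 3 pairs, with an exact sign-flip p of 0.25, the smallest that 3 pairs allow. The G0S2 and HILPDA ratios also had 1 direction in 3 of 3 pairs and the same p. For G0S2 the differences were 0.68, 0.08 and 0.0004, so replicate 3 was nearly tied. For HILPDA they were -1.87, -1.03 and -0.19. RPMI plus B27 replicate 1 therefore had the fewest G0S2 and ABHD5 counts and the most HILPDA counts per PNPLA2 count of the 6 libraries.

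The other pair of ratios overlapped as well. DGAT2 had 37.6, 44.4 and 23.8 counts per 100 of DGAT1 in RPMI plus B27 and 39.4, 31.6 and 19.6 in DMEM plus fatty acids (log2 difference -0.23, exact permutation p 0.6, adjusted 0.75). PLIN5 had 2.56, 1.30 and 3.44 counts per 100 of PLIN2 in RPMI plus B27 and 4.13, 2.33 and 1.72 in DMEM plus fatty acids (log2 difference 0.18, exact permutation p 0.8, adjusted 0.8). The PLIN5 to PLIN2 ratio was higher in DMEM plus fatty acids in replicates 1 and 2 and lower in replicate 3.

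**Figure D3:**
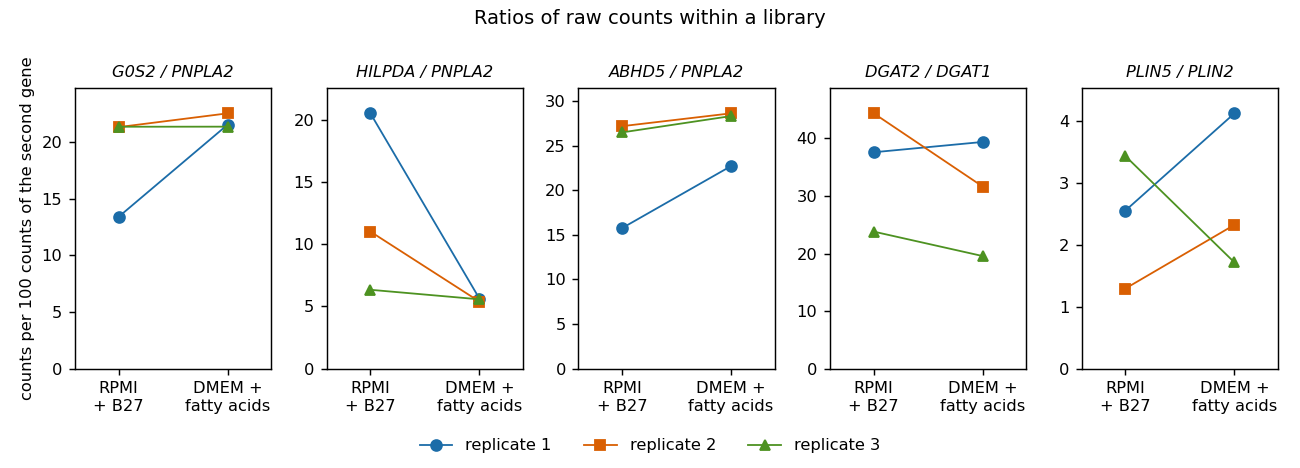
Counts of the first gene for every 100 counts of the second in each library, with each vertical axis starting at 0 and lines joining libraries with the same replicate number. HILPDA to PNPLA2 runs from 20.5 to 6.34 in RPMI plus B27 and stays at 5.39 to 5.63 in DMEM plus fatty acids, while G0S2 to PNPLA2 is 21.3 to 22.5 in 5 libraries and 13.4 in RPMI plus B27 replicate 1.

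The genes whose profiles over the 6 libraries lay nearest those of the 2 members with the smallest p were taken from the 10028 genes averaging 10 CPM or more. Likeness was the root mean square distance between log2 CPM values centred on their mean. For DGAT1 the nearest were LRFN4 (0.037), SLC25A6, a mitochondrial ADP/ATP carrier (0.039), and ALAS1, the first enzyme of haem synthesis (0.063). The distances were larger for HILPDA, whose nearest genes were FGF11 (0.173), EVA1B (0.197) and FHL2 (0.215). FGF11 had 160 CPM in RPMI plus B27 replicate 1, 71.5 and 47.7 CPM in replicates 2 and 3, and 28.0 to 39.1 CPM in DMEM plus fatty acids.

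Around the 10 genes, 47 tested genes of droplet assembly, glycerolipid synthesis, lipolysis and sterol ester turnover had a median log2 fold change of 0.07, and 1 of them passed (2.13% of the 47, against 1.36% of all genes). It was AGPAT5, an acyltransferase of phosphatidic acid synthesis, which fell from 52.4 ± 4.33 to 29.2 ± 1.03 CPM (SD, n = 3 each; -0.84 ± 0.12, adjusted p 0.0346, edgeR). AGPAT5 lost its call when any single library other than RPMI plus B27 replicate 3 was left out. The droplet assembly list had 0 of 13 past the threshold with 1 at an unadjusted p under 0.05, AUP1 (0.31 ± 0.13), and the DESeq2 test called 0 of them. PLIN1, the perilipin of adipocytes, had at most 7 counts in a library and was not tested. Of the 18 tested synthesis genes, 4 had an unadjusted p under 0.05 (edgeR): AGPAT5, LPIN1, GPD1L (0.48 ± 0.15) and ACSL1 (0.54 ± 0.21). LPIN1, a phosphatidate phosphatase that supplies diacylglycerol to DGAT1 and DGAT2, had 51.7 to 63.7 CPM in RPMI plus B27. In DMEM plus fatty acids LPIN1 had 158, 87.4 and 88.6 CPM (0.94 ± 0.24, adjusted p 0.114, edgeR, and 0.0152 by DESeq2). In the lipolysis list 0 of 14 passed, the median log2 fold change was -0.05 (6 positive and 8 negative) and 4 had an unadjusted p under 0.05. Of these, DDHD2 (-0.41 ± 0.14), DDHD1 (-0.34 ± 0.13) and ABHD4 (-0.30 ± 0.13) had negative values. The other was LPL, the lipase that frees fatty acids outside the cell (2.52 to 3.92 CPM in RPMI plus B27 and 16.6, 8.79 and 4.06 CPM in DMEM plus fatty acids, adjusted p 0.160, edgeR, and 0.0196 by DESeq2). Both sterol ester genes tested, SOAT1 (0.52 ± 0.22) and NCEH1 (0.60 ± 0.21), had an unadjusted p under 0.05 and neither passed in edgeR or DESeq2.

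MGLL, which releases the last acyl chain after PNPLA2 and hormone-sensitive lipase, was looked at after its values were seen. It had 108 to 149 CPM in 5 libraries and 19.2 CPM in DMEM plus fatty acids replicate 1, the library that was also lowest for PLIN3.

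Lists of genes responsive to the factors that regulate PLIN2 and HILPDA were set beside them. Of all tested genes 1.36% passed in the main edgeR fit. Of 12 tested PPAR-responsive genes outside the members, 1 rose, CPT1A (1.75 ± 0.27, adjusted p 0.0402, edgeR), and the median log2 fold change was 0.50, beside 0.29 for PLIN2 and 0.01 for all genes. CPT1A had 62.3 CPM in DMEM plus fatty acids replicate 1 and 127 and 107 CPM in replicates 2 and 3. PLIN2 was also lowest in replicate 1 of that medium. Within replicate 1 the log2 difference between media was 0.84 for CPT1A and -0.63 for PLIN2. The list had both signs there, with 0.53 for HADHA, -0.77 for PDK4 and -3.31 for ANGPTL4. In replicates 2 and 3 PDK4 had 1.83 and 2.35 and ANGPTL4 1.86 and 2.26, so both had the signs of PLIN2 in each replicate number. DMEM plus fatty acids replicate 1 was the lowest library of its medium for 7 of the 12 genes and for 37.3% of all tested genes. Of 13 tested HIF-responsive genes outside the members, 3 fell, LDHA (-2.26 ± 0.32), BNIP3 (-2.04 ± 0.32) and PFKFB3 (-1.43 ± 0.25). The median was -1.44, beside -1.32 for HILPDA. Within replicate 3, however, the log2 difference was -0.12 for HILPDA, against -2.20 for LDHA, -1.87 for BNIP3 and -1.69 for PFKFB3. Other genes of the list did not fall so far there, with -0.18 for ADM, -0.03 for NDRG1 and 0.51 for VEGFA. In the fit blocked on the replicate number 7 of the 13 passed, against 4.78% of all tested genes, and HILPDA did not (adjusted p 0.143, edgeR). RPMI plus B27 replicate 1 was the highest of the 6 libraries for 12 of these 13 genes, as it was for HILPDA, and for 27.7% of all tested genes. Their part in the values of HILPDA and PLIN2 was not tested, nor was that of the fibroblast, smooth muscle and hepatocyte markers given above.

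**Figure D4:**
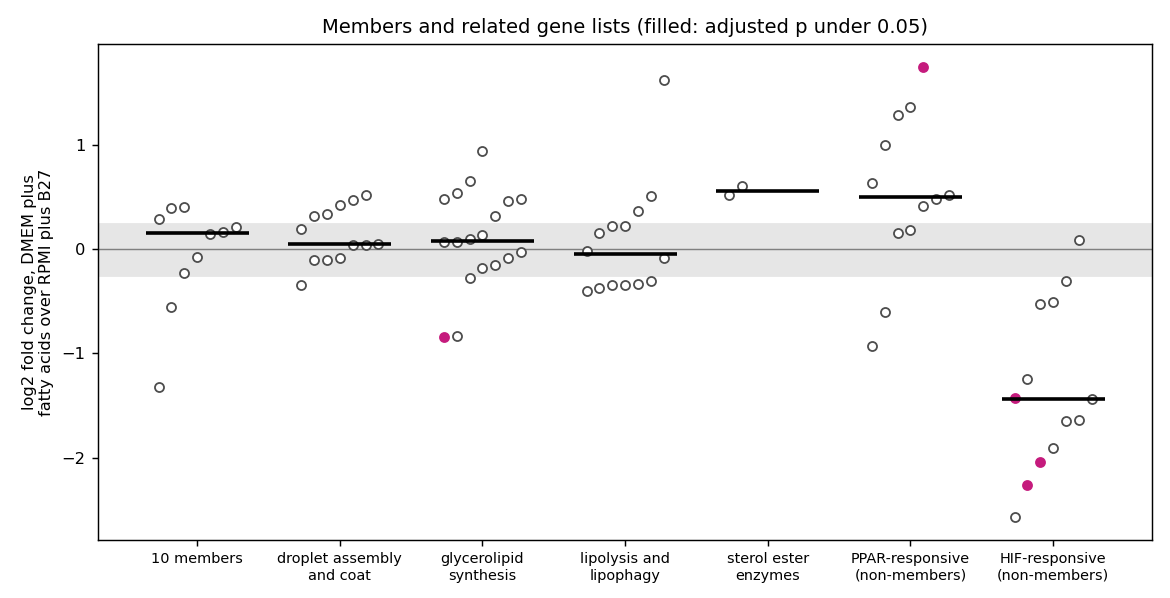
Log2 fold change of the 10 genes and of the tested genes of each related list; filled points have an adjusted p under 0.05, bars are medians and the grey band is the interquartile range of all tested genes. None of the 10 genes is filled, and the list medians run from -1.44 for HIF-responsive genes to 0.56 for sterol ester enzymes.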

How the data were processed

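Counts per gene symbol were deposited for 6 libraries, 1 file each, neither normalized nor pooled. Per the submitters' processing notes STAR, HTSeq and hg38 were used. Versions, annotation and strand setting are not given in the sources used here. The 5 summary rows per file name no gene and were left out (12.8% to 15.6% of each library, of which reads matching several genes were 3.90% to 4.15%), so members overlapping another gene can be undercounted. In GENCODE 29 (GRCh38), used for positions and lengths, all members except PLIN2 overlap another gene.

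Tests on these counts used edgeR 4.0.16 (R 4.3.3, TMM, filterByExpr with minimum count 10 and minimum total 15, no covariates, Benjamini-Hochberg, threshold 0.05), and all 10 members passed the filter. SEs are those implied by the F statistic, with 95% intervals from its degrees of freedom. Alternatives were DESeq2 1.42.0, other scalings and filters, a replicate block and omitted libraries. The edgeR fit without a block was tested on simulated data with independent libraries, and the permutation test on a case with a known answer. The other steps were not tested in this way. Deviations from the medium's mean correlated across genes at 0.313, 0.428 and 0.365 for libraries sharing a replicate number, and at -0.242 to -0.136 otherwise. The main fit nonetheless left the replicate number out, so its SEs, intervals and p-values ignore this correlation. The number was used in the block alternative, in the log2 differences within replicate numbers and in the sign-flip tests. No 2 libraries agreed within sampling noise (smallest chi-square per degree of freedom 31.6).

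The members and lists were chosen with earlier results of these data known. Named genes are all members, list genes past the threshold, up to 4 of a list with the smallest p, and the 3 nearest profiles of 2 members. Other list genes were named with their values in view. A count of 0 allows up to 3 counts, a limit that covers counting error only.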

Additional observations from a re-analysis of the deposited data

How the results depend on the processing

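No member passed the threshold under any of the 13 alternatives to the edgeR fit, including the replicate block, and PLIN4 was not testable with at least 10 counts in every library. The direction of PLIN2, PLIN3, PLIN4, PLIN5, DGAT1, G0S2 and HILPDA was kept wherever they were fitted. That of PNPLA2 and DGAT2 changed in 2 alternatives each and that of ABHD5 in 1, all with values near 0 (up to 0.03, down to -0.003 and -0.01). Among the related genes outside the members, the count was 3 with DESeq2 (AGPAT5, LPIN1 and LPL), 2 with no filter on low counts, and 0 to 1 when libraries were left out. Over all genes the count of 219 became 1212 with DESeq2, 539 with no filter, 119 with at least 10 counts in every library, 770 with the replicate block, and 3 to 131 when libraries were left out. The replicate block changed no member's call. Lower genes made up 78.5% of calls, and 63.4% under total counts. The PLIN5 to PLIN2, ABHD5 to PNPLA2 and DGAT2 to DGAT1 ratios changed sign when single libraries were left out (-0.22 to 0.48, -0.02 to 0.37 and -0.49 to 0.05 on the log2 scale). Leaving out both replicate 1 libraries was added after seeing the data. Depth limits PLIN4 and PLIN5, with 7 to 47 counts per library, and reads lost to overlapping genes can lower both counts.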

Other observations

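Some related genes outside the members differed more between replicate numbers than between media. They were chosen with their values in view. FITM1, which helps droplets bud from the endoplasmic reticulum and is made mainly in muscle, had 71.4, 20.5 and 55.1 CPM in RPMI plus B27 replicates 1 to 3 and 120, 24.4 and 66.0 CPM in DMEM plus fatty acids replicates 1 to 3, with the lowest value in replicate 2 of both media. GPAT3, which adds the first acyl chain to glycerol-3-phosphate, had 52.3, 43.9 and 20.0 CPM and 75.8, 48.1 and 20.8 CPM, with the lowest value in replicate 3 of both. DGAT2, which acts later in the same pathway, was also lowest in replicate 3 of both media. BSCL2, the gene of seipin, had only 0.234 to 0.445 CPM in the 6 libraries. The deposited table also lists a readthrough gene, HNRNPUL2-BSCL2, and reads matching more than one gene were set aside by the counting, so this level is uncertain.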
